A study of Vitis vinifera with 12 samples.

Results

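The core of the flavonoid pathway was followed in berries of the grapevine (Vitis vinifera) cultivar Victoria by RNA sequencing. The genes were taken from a list of 9 gene IDs, set out by enzyme step: 3 chalcone synthases, 2 chalcone isomerases, 2 flavanone 3-hydroxylases, 1 dihydroflavonol reductase and 1 leucoanthocyanidin dioxygenase. Of these, 8 were measured among the 22580 gene IDs of the expression table, and all 8 passed the filter on low values (at least 1 FPKM in at least 3 libraries), as did 14743 IDs in all. The chalcone synthase VIT_14s0068g00920 was not analysed here. The rule that lists the IDs uses no expression value, but the pathway was picked for study with earlier results of these data known, so the choice was not independent of them. Whole fruit was taken 40, 50, 60 and 80 days after full bloom (days 40 to 80 below). Each age has 3 libraries, lettered a, b and c, which makes 12. All groups are of the same cultivar and tissue, with no treatment named. According to the labels' protocols, RNA of several biological replicates was extracted separately and then pooled, so the 3 libraries of an age may be parts of 1 pool. The p-values then measure only how far these libraries spread, which may be a technical spread.

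Flavonoids are made from a phenylpropanoid precursor. Chalcone synthase condenses it with malonyl units into a chalcone, chalcone isomerase closes the ring to a flavanone, and flavanone 3-hydroxylase makes the dihydroflavonol, from which flavonols branch off. Dihydroflavonol reductase and leucoanthocyanidin dioxygenase then carry the flow towards proanthocyanidins (the tannins of young skins and seeds) and anthocyanins (the pigments of coloured skins at ripening). Victoria is grown as a white table grape, whose berries do not colour.

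The enzyme of each ID comes from the list by which the genes were chosen. The expression table holds no gene names, and 0 of the IDs were found in the reference gene table (assembly ASM3070453v1), so the list of other pathway genes and the markers of seed and green tissue, which were to be found by name, could not be filled, and the labelled tissue was not checked against markers. By the numbering of the IDs, both chalcone isomerases lie on scaffold 0067 of chromosome 13, and VIT_18s0001g14310 (a flavanone 3-hydroxylase) and VIT_18s0001g12800 (dihydroflavonol reductase) on scaffold 0001 of chromosome 18. The other measured IDs are numbered to chromosomes 2, 4, 5 and 14. The reference table lists the gene symbols LDOX, F3H, CHS3 and CHI on chromosomes 2, 4, 5 and 13 and DFR on chromosome 18, the chromosomes that IDs of those enzymes are numbered to. That is an observation on chromosome numbers and no match of genes.

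The authors deposited FPKM values (fragments per kilobase of transcript per 1000000 fragments), a unit per length in which levels of different genes can be set side by side. The absolute depth is unknown. From whole-fragment steps in genes at low values, depth relative to library a of day 40 was estimated at 0.859 to 1.77. Each estimate rests on a cluster of 18 to 56 genes, at 1.64 to 5.33 times its background. The 1.77 belongs to library a of day 50 alone. Whether the clusters match equal fragment numbers was not tested. Columns summed to between 1058844 and 1395232 FPKM, and libraries of the same age had a Pearson correlation of 0.971 to 0.990 over the tested genes on the log2(FPKM + 1) scale. Library c of day 40 and library a of day 80 stood furthest from the mean of their age over all tested genes, with SDs of their deviations of 0.29 and 0.30 on the log2(FPKM + 1) scale, against 0.19 to 0.27 in the other 10 libraries. They were also the libraries in which all 8 pathway genes had the highest value of their age, which was so in both ages for 22.2% of tested genes. Each call below is therefore also given without these libraries where that changes it. Since whole fruit was sequenced, fewer cells of a type and less RNA per cell cannot be told apart. Differences below are later minus earlier age on the log2(FPKM + 1) scale with their standard error (SE). A gene is said to rise or fall where its limma p, adjusted over all tested genes by Benjamini and Hochberg, was under 0.05 and its difference was at least 1.

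Between the oldest and the youngest berries, 4 pathway genes rose and 2 fell, where 7.06% of tested genes rose and 16.1% fell. Of the early enzymes, both chalcone synthases, the chalcone isomerase VIT_13s0067g03820 and the flavanone 3-hydroxylase VIT_04s0023g03370 were higher on day 80 than on day 40, although the call of the chalcone synthase VIT_14s0068g00930 stood in only 10 of 22 alternative settings. Dihydroflavonol reductase (VIT_18s0001g12800) and leucoanthocyanidin dioxygenase (VIT_02s0025g04720), the late enzymes, were lower. The more abundant isogenes of the 2 middle steps, VIT_13s0067g02870 and VIT_18s0001g14310, did not pass. The course was not even. For 7 of the 8 genes the lowest mean FPKM was on day 50, as it was for 18.4% of tested genes, and for dihydroflavonol reductase it was on day 80. For both flavanone 3-hydroxylases this rested on library c of day 40. Libraries a and b of day 40 had 2.52 and 2.94 FPKM of VIT_04s0023g03370, under its 50-day mean of 4.46. They had 67.9 and 65.9 FPKM of VIT_18s0001g14310, under its 50-day mean of 69.2. On the log2 scale VIT_04s0023g03370 was 0.06 ± 0.54 SE higher on day 50 than on day 40 (limma adjusted p = 0.94).

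**Figure D1:**
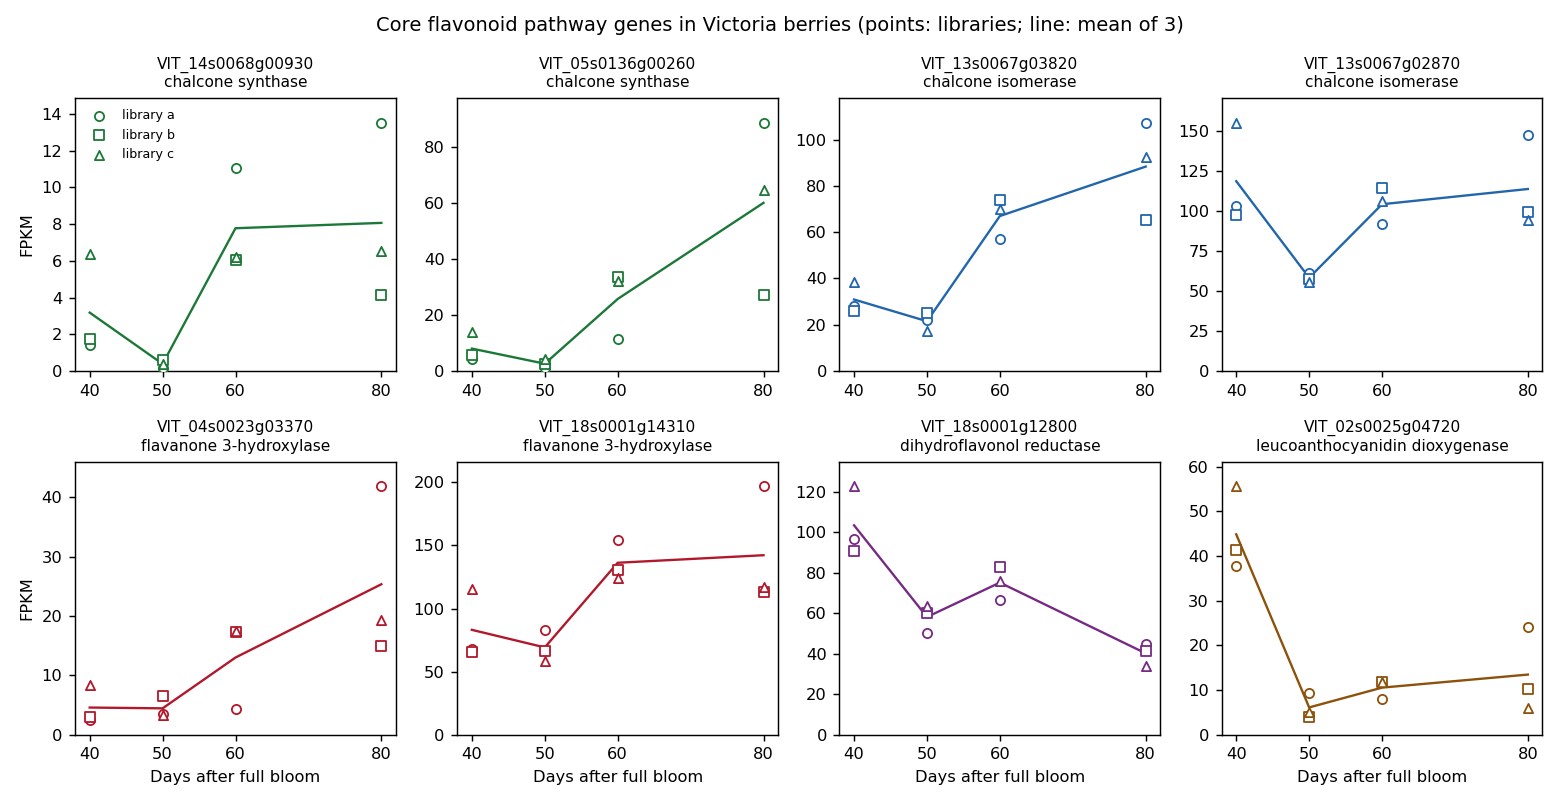
FPKM of each pathway gene (y axis, from 0, on its own scale in each panel) against days after full bloom, with 1 point per library and a line through the means of 3 libraries. The line is lowest on day 50 in 7 panels and on day 80 in the panel of dihydroflavonol reductase, and library c of day 40 and library a of day 80 are the highest points of their age in all 8. In the panels of both flavanone 3-hydroxylases, libraries a and b of day 40 lie under the 50-day mean.

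Chalcone synthase, the entry step, had the lowest summed mean FPKM of the 5 steps on days 40 and 50, over the 2 of its 3 listed IDs that were measured. VIT_05s0136g00260 stood at 4.42, 5.70 and 14.1 FPKM on day 40, 1.22, 2.47 and 4.29 on day 50, 11.5, 33.7 and 32.2 on day 60, and 88.8, 27.1 and 64.7 on day 80 (libraries a, b and c). The 80-day libraries lay above all 40-day libraries, and the 60-day above all 50-day libraries, while 60 days overlapped with both 40 and 80 days. Its mean was 60.2 ± 31.1 FPKM on day 80, against 8.07 ± 5.25 on day 40 (SD, n = 3 each), and its fitted difference was 2.75 ± 0.55 (SE, log2 scale, limma adjusted p = 0.0011). Ranked by mean FPKM among all 22580 IDs, the gene held place 2398 on day 80 and place 12113 on day 50. The rise came after 50 days, with 25.8 ± 12.4 FPKM on day 60 against 2.66 ± 1.54 on day 50 (2.82 ± 0.55 SE, limma adjusted p = 0.0055). From 60 to 80 days the difference was 1.17 ± 0.55 SE and did not pass (limma adjusted p = 0.12), though without library b of day 80 it did (1.66, limma adjusted p = 0.042). Without library a of day 60 it was 0.69 (limma adjusted p = 0.37).

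VIT_14s0068g00930, the other chalcone synthase, had a lower mean at every age. It had 1.41, 1.77 and 6.38 FPKM on day 40, 0.166, 0.622 and 0.391 on day 50, 11.1, 6.04 and 6.22 on day 60, and 13.5, 4.16 and 6.53 on day 80. The 50-day libraries lay below those of every other age, and library c of day 40 lay within the range of the 80-day libraries. Chalcone synthases are a family of similar genes, and how fragments that map to several copies were counted is not given in the sources used here, so the level of this ID, whose listed neighbour was not analysed here, is uncertain. The rise from 50 to 60 days was 2.62 ± 0.45 (SE, log2 scale, limma adjusted p = 0.0030) and was called in all 22 alternatives run, but at these low levels its size hangs on the pseudocount, with 4.06 at a pseudocount of 0.1 and 1.22 at 5. The fall from 40 to 50 days (-1.41 ± 0.45 SE, limma adjusted p = 0.025) ended without library c of day 40 (-0.90, limma adjusted p = 0.088), library a of day 50 (-1.29, limma adjusted p = 0.075) or library c of day 50 (-1.41, limma adjusted p = 0.057), and with a pseudocount of 5 (-0.55, limma adjusted p = 0.12). The higher level on day 80 than on day 40 (8.07 ± 4.87 against 3.19 ± 2.77 FPKM, 1.17 ± 0.45 SE, limma adjusted p = 0.040) was lost in 12 of 22 alternatives, with adjusted p between 0.0038 and 0.16 over them. One of these left out library a of day 80 (0.77, limma adjusted p = 0.16). Leaving out library a of day 40 gave 0.87 (limma adjusted p = 0.15), and library b of day 40 0.97 (limma adjusted p = 0.13). Without library c of day 80 it was 1.24 (limma adjusted p = 0.066), without library c of day 50 1.17 (limma adjusted p = 0.052), and without library c of day 60 1.17 (limma adjusted p = 0.0504). Without both library c of day 40 and library a of day 80, a setting chosen after seeing the data, the call stood (1.27, limma adjusted p = 0.0050). Each was the highest library of its age, so leaving out both lowers both means and narrows the spread. That setting is therefore no check on the call.

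Together both chalcone synthase IDs had 11.3 ± 8.01 FPKM on day 40, 3.06 ± 1.65 on day 50, 33.6 ± 9.57 on day 60 and 68.3 ± 35.6 on day 80. VIT_05s0136g00260 made up 73.6% ± 4.19 of that sum on day 40, 86.5% ± 6.02 on day 50 and 88.1% ± 2.37 on day 80. At 60 days its share was 50.9% in library a, against 84.8% in library b and 83.8% in library c.

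Chalcone isomerase is encoded by 2 listed IDs with different courses. VIT_13s0067g03820 had 28.2, 26.1 and 38.5 FPKM on day 40, 22.3, 24.9 and 17.4 on day 50, 57.0, 74.0 and 69.9 on day 60, and 107, 65.3 and 92.4 on day 80. Every library of 60 and 80 days lay above every library of 40 and 50 days. Its mean was 88.3 ± 21.3 FPKM on day 80, against 30.9 ± 6.60 on day 40 (1.47 ± 0.20 SE, log2 scale, limma adjusted p = 8.15e-05). The interval that passed was 50 to 60 days, when it rose by 1.60 ± 0.20 SE (limma adjusted p = 0.00076). The difference was -0.50 ± 0.20 SE from 40 to 50 days (limma adjusted p = 0.068) and 0.37 ± 0.20 SE from 60 to 80 days (limma adjusted p = 0.18).

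VIT_13s0067g02870 had 103, 97.3 and 155 FPKM on day 40, 61.4, 57.7 and 55.6 on day 50, 91.6, 114 and 106 on day 60, and 147, 99.2 and 94.2 on day 80. The 50-day libraries lay below all others, and the other ages overlapped. Its difference from 40 to 50 days was -0.98 ± 0.19 (SE, log2 scale, limma adjusted p = 0.0020) and from 50 to 60 days 0.82 ± 0.19 SE (limma adjusted p = 0.014). Both passed the test on p but not the minimum difference of 1. With 1 of the 12 libraries left out singly, the later interval did not pass on p either (limma adjusted p = 0.058). Leaving out library a or b of day 40, or library a of day 50, carried the earlier interval past that minimum (-1.06, -1.11 and -1.02, with limma adjusted p of 0.0044, 0.0028 and 0.0057), as did scaling to sums of 1000000 (-1.01, limma adjusted p = 0.00047), while without library c of day 40 it was -0.77. It stood at 114 ± 29.3 FPKM on day 80 and 118 ± 31.7 on day 40, a difference of -0.06 ± 0.19 SE (limma adjusted p = 0.81) whose sign was positive with median-of-ratios scaling (0.06).

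The balance of the chalcone isomerases, given as a description, differed between ages. VIT_13s0067g03820 held 20.8% ± 0.83 of their summed FPKM on day 40, 26.9% ± 3.18 on day 50, 39.1% ± 0.70 on day 60 and 43.8% ± 5.11 on day 80. The 3 libraries of 40 days lay below those of 50 days, and those below 60 days, while 60 and 80 days overlapped. This share is a ratio within each library and does not depend on scaling between libraries. In library c of day 40 it was 19.9%, against 21.5% in library a and 21.2% in library b. In library a of day 80 it was 42.1%, between the 39.7% of library b and the 49.5% of library c.

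**Figure D2:**
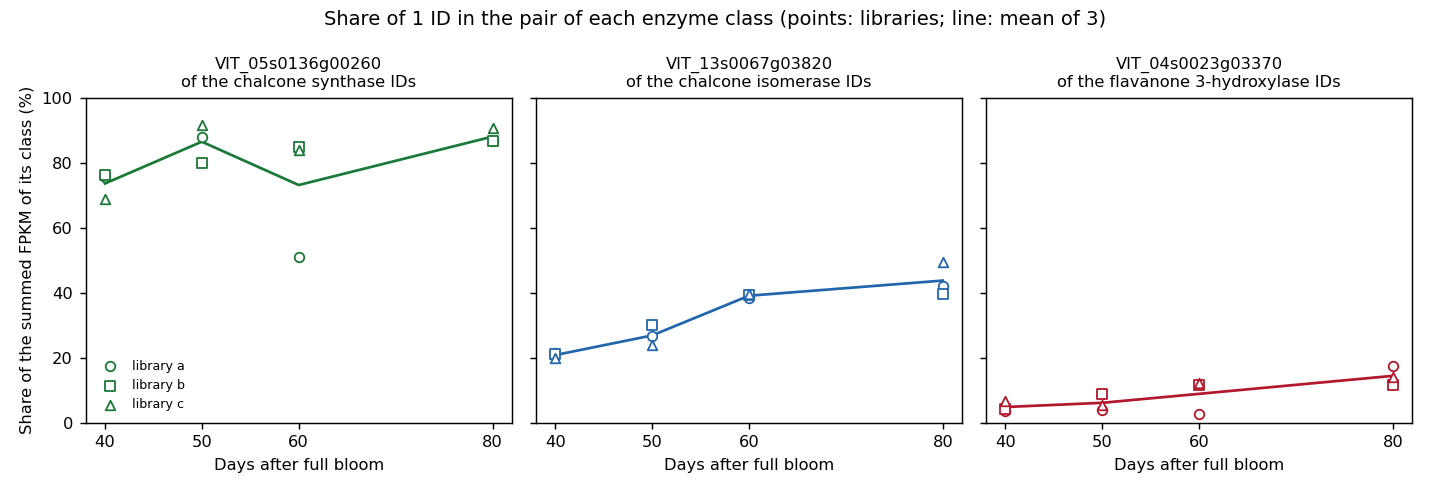
Share of 1 ID in the summed FPKM of the 2 measured IDs of its enzyme class (y axis, percent, starting at 0) against days after full bloom, 1 point per library with a line through the means of 3 libraries. The chalcone isomerase VIT_13s0067g03820 has a mean share of 43.8% on day 80, against 20.8% on day 40, while the chalcone synthase VIT_05s0136g00260 has 1 low library on day 60 (50.9%).

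Flavanone 3-hydroxylase was carried mainly by VIT_18s0001g14310, the most abundant of the 8 genes at 50, 60 and 80 days. It had 67.9, 65.9 and 116 FPKM on day 40, 83.1, 66.1 and 58.4 on day 50, 154, 131 and 124 on day 60, and 197, 113 and 117 on day 80. The 60-day libraries lay above all of those at 40 and 50 days, whereas 80 days overlapped with 40 days through library c of the younger age. From 50 to 60 days the difference was 0.98 ± 0.25 (SE, log2 scale, limma adjusted p = 0.020). It missed the minimum of 1 and passed it with median-of-ratios scaling (1.002, limma adjusted p = 0.018), without library a of day 50 (1.11, limma adjusted p = 0.027) or without library c of day 60 (1.04, limma adjusted p = 0.046). With 4 of the 12 libraries left out singly the p did not pass either, up to an adjusted p of 0.068 without library c of day 50, where the difference was 0.86. With 142 ± 47.2 FPKM on day 80 and 83.1 ± 28.1 on day 40, the difference over the whole course was 0.77 ± 0.25 SE (limma adjusted p = 0.020), short of the minimum. It was 1.03 without library c of day 40 (limma adjusted p = 0.0030) and 0.51 without library a of day 80 (limma adjusted p = 0.077), and with 3 of the 12 libraries left out singly the adjusted p was not passed either.

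VIT_04s0023g03370, the minor flavanone 3-hydroxylase, had 2.52, 2.94 and 8.31 FPKM on day 40, 3.46, 6.49 and 3.42 on day 50, 4.34, 17.2 and 17.5 on day 60, and 41.8, 14.9 and 19.3 on day 80. Every neighbouring pair of ages overlapped, and library a of day 60 lay among the libraries of 50 days. The 80-day libraries nevertheless all lay above those of 40 days. Its mean was 25.4 ± 14.4 FPKM on day 80, against 4.59 ± 3.23 on day 40 (2.25 ± 0.54 SE, limma adjusted p = 0.0039), and it was called in all 22 alternatives. No single interval passed, although without library a of day 60 the step from 50 to 60 days did (1.80, limma adjusted p = 0.030, against 1.20 ± 0.54 SE and limma adjusted p = 0.14 with it, and 0.90 without library c of day 60). This ID held 14.5% ± 2.95 of the summed FPKM of the pair on day 80, against 4.85% ± 1.64 on day 40, with all 3 later libraries above the earlier ones.

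Dihydroflavonol reductase, the single listed gene of the step that commits dihydroflavonols to leucoanthocyanidins, had the smallest standard error of the 8 genes. VIT_18s0001g12800 had 96.9, 90.9 and 123 FPKM on day 40, 50.5, 60.3 and 63.8 on day 50, 66.7, 82.9 and 76.1 on day 60, and 45.0, 41.6 and 34.2 on day 80. No age overlapped with its neighbour in level, so the order was 40, 60, 50 and 80 days from high to low. It was 40.3 ± 5.56 FPKM on day 80, against 104 ± 16.9 on day 40, a fall of -1.34 ± 0.14 (SE, log2 scale, limma adjusted p = 1.22e-05) called in all 22 alternatives. The single intervals stayed under the minimum of 1. The difference was -0.81 ± 0.14 SE from 40 to 50 days (limma adjusted p = 0.00099), 0.37 ± 0.14 SE from 50 to 60 days (limma adjusted p = 0.098) and -0.89 ± 0.14 SE from 60 to 80 days (limma adjusted p = 0.00079). Once libraries were scaled to sums of 1000000, the last interval passed (-1.03, limma adjusted p = 0.00012).

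Leucoanthocyanidin dioxygenase, also called anthocyanidin synthase, was at its highest on day 40 and fell before day 50. VIT_02s0025g04720 had 37.7, 41.3 and 55.6 FPKM on day 40, 9.44, 3.91 and 5.02 on day 50, 8.02, 11.8 and 11.9 on day 60, and 24.0, 10.3 and 6.04 on day 80. The 40-day libraries lay above all others, and the 3 later ages overlapped. The mean was 6.12 ± 2.93 FPKM on day 50, against 44.8 ± 9.46 on day 40 (-2.74 ± 0.41 SE, limma adjusted p = 0.00035), and 13.5 ± 9.40 on day 80, against the same 40-day libraries (-1.84 ± 0.41 SE, limma adjusted p = 0.0023). Both falls were called in all 22 alternatives. In later intervals the differences were 0.75 ± 0.41 SE from 50 to 60 days and 0.14 ± 0.41 SE from 60 to 80 days (limma adjusted p = 0.22 and 0.81).

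Ratios between steps within a library do not depend on scaling between libraries. Dihydroflavonol reductase stood at 2.33 ± 0.21 times the FPKM of leucoanthocyanidin dioxygenase on day 40, 11.2 ± 5.22 times on day 50, 7.26 ± 0.97 times on day 60 and 3.85 ± 1.90 times on day 80. The 80-day libraries (1.87, 4.02 and 5.66) spread around the 40-day libraries (2.57, 2.20 and 2.21), with library a below them. The flavanone 3-hydroxylase VIT_18s0001g14310 stood at 0.789 ± 0.13 times dihydroflavonol reductase on day 40, 1.22 ± 0.38 on day 50, 1.84 ± 0.41 on day 60 and 3.50 ± 0.83 on day 80. At 80 days all 3 libraries (4.37, 2.72 and 3.42) were above all of 40, 50 and 60 days. The chalcone synthase VIT_05s0136g00260 was at 5.67 ± 4.39 times leucoanthocyanidin dioxygenase on day 80, against 0.170 ± 0.073 times on day 40, with library values of 3.69, 2.62 and 10.7 at the later age, against 0.117, 0.138 and 0.253 at the earlier.

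Set against the whole table, pathway genes rose in 1 of the 3 intervals between neighbouring ages. From 50 to 60 days 3 of the 8 rose and 0 fell, where 2.01% of tested genes rose and 2.31% fell. By limma's unadjusted p under 0.05, 7 were higher and 0 lower on day 60, where 15.8% of tested genes were higher and 18% lower. Their median difference was 1.09 on the log2 scale, beside -0.02 over all 14743 tested genes, and 6 of the 8 had all day-60 libraries above all day-50 libraries, as 19.1% of tested genes did. From 40 to 50 days 2 fell and 0 rose, where 8.43% of tested genes fell and 3.44% rose (by unadjusted p, 6 were lower and 0 higher, beside 30.4% and 20.8% of tested genes). The median difference was -0.90, beside -0.07 over all tested genes, and 6 of the 8 had all day-50 libraries below all day-40 libraries, as 32.5% of tested genes did. Both intervals rest on the same 50-day libraries. From 60 to 80 days 0 rose and 0 fell by limma, where 2.68% of tested genes rose and 6.8% fell, and by unadjusted p 1 was lower and 0 higher, beside 24.1% and 20.6% of tested genes. The median was 0.12, beside -0.01. For 80 against 40 days, all day-80 libraries lay above all day-40 libraries in 3 of the 8, as in 25.9% of tested genes, and below them in 2, as in 38.5%. The median was 0.97, beside -0.11 over all tested genes. That median over all tested genes was -0.0049 with median-of-ratios scaling and -0.35 with libraries scaled to sums of 1000000. Of all genes called for 80 against 40 days, 30.5% rose with the values as deposited, 37.3% with median-of-ratios scaling and 18.9% with sums of 1000000. Of those called from 50 to 60 days it was 46.6%, 50.1% and 35.4% in the same order. Among the pathway genes 4 were higher and 2 lower on day 80 than on day 40 under median-of-ratios scaling. With sums of 1000000, 3 were higher and 2 lower. From 50 to 60 days, 4 were higher under median-of-ratios scaling and 3 with sums of 1000000. In the test over all 4 ages 6 of the 8 differed (moderated F test of limma, with a range of means of at least 1), as 30.6% of tested genes did. Those that missed it were VIT_13s0067g02870 (range 0.98, limma adjusted p = 0.0024) and VIT_18s0001g14310 (range 0.996, limma adjusted p = 0.0064). With single libraries left out these ranges ran from 0.92 to 1.11 for VIT_13s0067g02870 and from 0.88 to 1.13 for VIT_18s0001g14310. In these fits 6 to 8 of the pathway genes differed. VIT_13s0067g02870 passed in 5 of these 12 fits. VIT_18s0001g14310 passed in 6 of the 12, among them the fit without library c of day 40 (range 1.03, limma adjusted p = 0.0015). Without both that library and library a of day 80, a setting chosen after seeing the data, VIT_18s0001g14310 passed too (range 1.01, limma adjusted p = 0.00031).

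**Figure D3:**
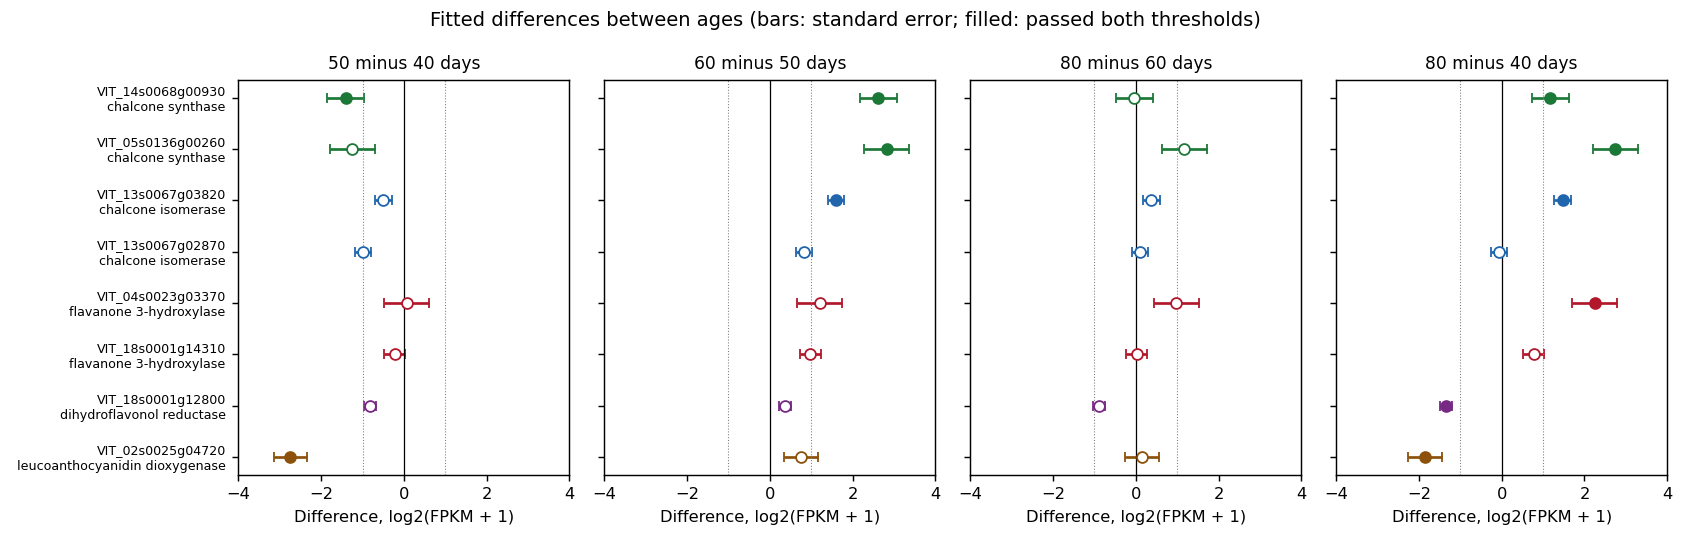
Fitted differences of each pathway gene on the log2(FPKM + 1) scale (x axis) for 50 minus 40, 60 minus 50, 80 minus 60 and 80 minus 40 days, with bars of 1 standard error, filled points where both thresholds were passed, and dotted lines at a difference of 1 in either direction. All 8 points lie above 0 for 60 minus 50 days, and for 80 minus 40 days 4 filled points lie above 0 and 2 below.

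Within an age, the same library was often highest across the pathway. At 40 days library c had the top value of the 3 in 8 of 8 genes, as in 43.7% of tested genes, and on day 80 library a did so in 8 of 8, as in 43.4%. The median deviation of the 8 genes from the mean of their age was 0.47 on the log2 scale in library c of day 40 and 0.61 in library a of day 80, beside 0.01 and 0.02 over all tested genes. Library a of day 60 had the lowest value in 6 of the 8 genes and the highest in the other 2, VIT_14s0068g00930 and VIT_18s0001g14310, while it was lowest in 39.2% and highest in 36.0% of tested genes. What sets these libraries apart was not tested. With library c of day 40 and library a of day 80 both left out, the same numbers were called for 80 against 40 days, 4 higher and 2 lower. From 50 to 60 days 3 were again higher, and from 40 to 50 days 1 was lower in place of 2. This setting was chosen after seeing the data. As all 8 genes were highest in both libraries, it lowers the means of both ages, so the counts for 80 against 40 days are no independent check.

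**Figure D4:**
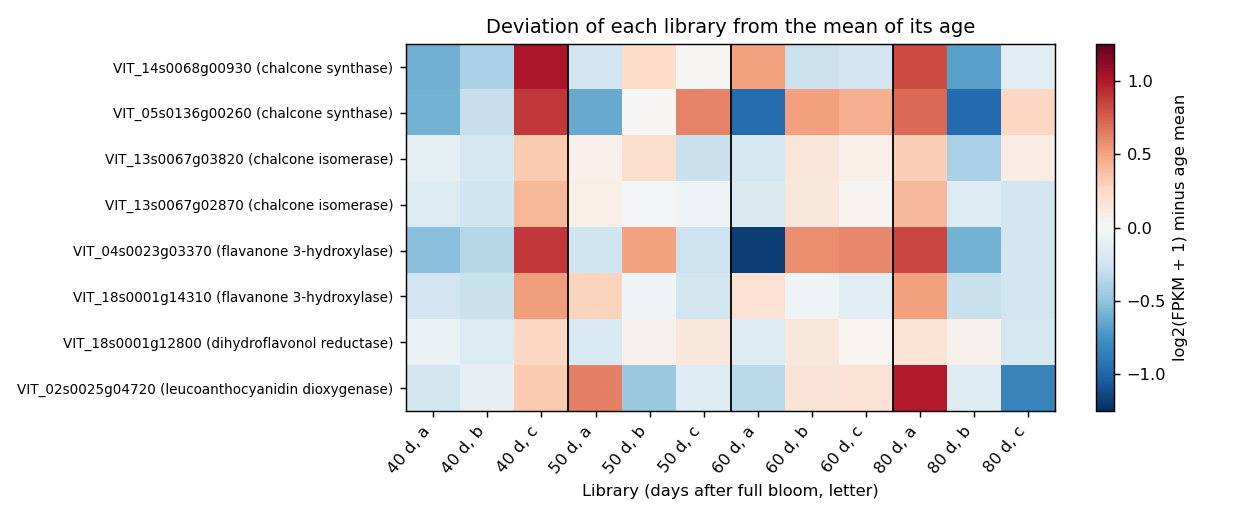
Deviation of each library (columns, by days after full bloom and letter) from the mean of its age, on the log2(FPKM + 1) scale, for each pathway gene (rows); red is above and blue below the age mean. The columns of library c of day 40 and library a of day 80 are red in all 8 rows, and the column of library a of day 60 is blue in 6.

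Likeness between profiles was measured by Pearson's r of log2(FPKM + 1) over the 12 libraries, as a description without a test, since libraries of 1 age share their age and genes of 1 library share its depth. Library c of day 40 and library a of day 80, in which all 8 genes were highest of their age, count in every r. No r was computed without them. Among the early enzymes other than VIT_13s0067g02870, r lay between 0.71 and 0.95. The highest value joined the chalcone synthase VIT_05s0136g00260 and the chalcone isomerase VIT_13s0067g03820 (0.95). Out of 14742 other tested genes this isomerase was in place 3 by likeness to that synthase, and the synthase in place 9 by likeness to the isomerase. The chalcone synthase VIT_14s0068g00930 was most like the flavanone 3-hydroxylase VIT_18s0001g14310 among the pathway genes (0.92, place 7). Dihydroflavonol reductase had r between -0.44 and 0.29 with the early enzymes and 0.63 with leucoanthocyanidin dioxygenase. That last value put leucoanthocyanidin dioxygenase in place 3519 by likeness to the reductase VIT_18s0001g12800, and the reductase in place 2685 by likeness to VIT_02s0025g04720. The isomerase VIT_13s0067g02870 had r of 0.73 with leucoanthocyanidin dioxygenase and 0.80 with the chalcone synthase VIT_14s0068g00930.

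**Figure D5:**
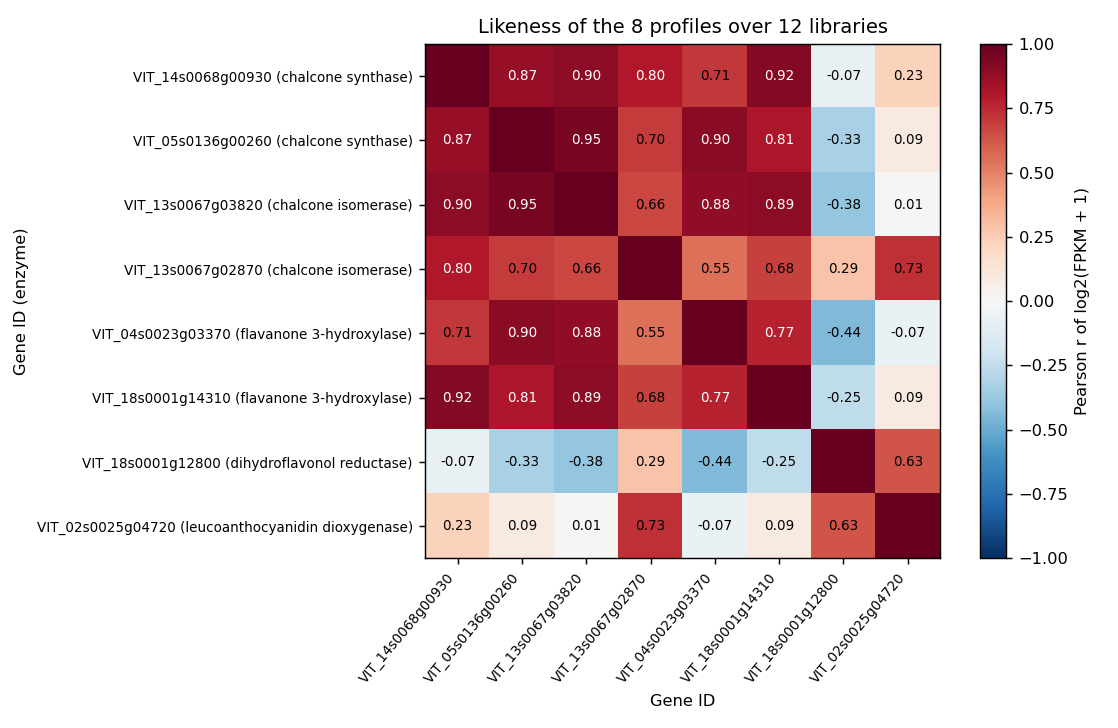
Pearson's r of log2(FPKM + 1) over 12 libraries between each pair of the 8 pathway genes (rows and columns), printed in each cell and coloured from -1 (blue) to 1 (red). The early enzymes have r from 0.55 to 0.95 with each other, and dihydroflavonol reductase has r from -0.44 to 0.29 with them.

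Among 8487 other genes with a mean of at least 10 FPKM, those most like single pathway genes are given by ID, since no name is paired with them. VIT_00s0125g00280 was most like dihydroflavonol reductase VIT_18s0001g12800 (r = 0.98), with 142 ± 31.5 FPKM on day 40, 26.9 ± 3.76 on day 50, 50.4 ± 10.5 on day 60 and 14.8 ± 3.92 on day 80. VIT_07s0141g00710 was most like leucoanthocyanidin dioxygenase VIT_02s0025g04720 (r = 0.97), with 350 ± 13.7, 238 ± 9.20, 259 ± 2.98 and 263 ± 33.1 FPKM from the youngest to the oldest age. VIT_09s0002g04260 was most like the chalcone isomerase VIT_13s0067g02870 (r = 0.97) and dipped on day 50 as it did, with 40.5 ± 8.21, 20.8 ± 1.31, 40.4 ± 4.47 and 40.7 ± 5.62 FPKM from the youngest to the oldest age. VIT_17s0000g07580 was most like the chalcone isomerase VIT_13s0067g03820 (r = 0.97), with 15.5 ± 1.04, 14.1 ± 0.59, 29.6 ± 5.50 and 39 ± 4.81 FPKM.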

How the data were processed

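Polyadenylated RNA of Victoria fruit was sequenced in directional libraries, per the labels' protocols, and the authors deposited 1 table of FPKM values. Per the submitters' processing notes, the tools were Cufflinks, TopHat2, FastQC, Trimmomatic 0.36 and edgeR, with no roles stated. For the genome build, annotation, settings and multi-mapping fragments, the entry is: not given in the sources used here. Columns were matched to samples by description, with 0 left over. FPKM are not counts, so log2(FPKM + 1), with a pseudocount of 1 that understates changes of low genes, was fitted with limma 3.58.1 in R 4.3.3: 1 mean per age, all 12 libraries, an intensity trend, 8 residual degrees of freedom, and no scaling beyond the deposited values. The 14743 genes that reached 1 FPKM in 3 or more libraries were tested. A call needed a Benjamini-Hochberg adjusted p under 0.05 over all of them and a difference of at least 1. The fit was tested on simulated data with independent noise per gene and library and planted differences larger than the minimum. Differences near the minimum and deviations shared by the genes of a library were not simulated. Python 3.11.15, numpy 2.4.6 and pandas 2.3.3 gave levels, shares and ratios. Alternatives were other pseudocounts, filters and scalings, the library letter as a replicate block, no minimum difference, only the 2 ages compared, and each library left out. Pathway genes and tests were chosen with earlier results of these data known. All listed genes are named. Other genes named are non-members of at least 10 FPKM most like a pathway gene. At most 2 with a positive and 2 with a negative difference (day 80 minus day 40, sign only) were kept, those of highest r.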

Additional observations from a re-analysis of the deposited data

How the results depend on the processing

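Over 22 alternatives, 872 values of single genes were recomputed, of which 798 kept their sign and their side of the thresholds. Many of these values could not change sign. Other filters, the library letter as a replicate block, no minimum difference and a fit of only the compared ages left each difference unchanged. So did leaving out a library of an age outside the comparison. In these settings only the call could change, and with no minimum difference a call could only be gained. The count of 798 is therefore not a measure of robustness. The absolute depth is unknown, and a median standard error of 0.15 over all tested genes, with up to 0.55 in the pathway genes, limits what could be called between neighbouring ages. With a pseudocount of 5, 1 gene was lower on day 50 than on day 40. With no minimum difference 4 were lower on day 50 than on day 40, 5 higher on day 60 than on day 50 and 1 lower on day 80 than on day 60. Scaling to a sum of 1000000 gave 1 lower on day 80 than on day 60. Leaving out single libraries gave 1 to 3 lower on day 50 than on day 40 and 0 to 1 higher on day 80 than on day 60. Leaving out both library c of day 40 and library a of day 80, an alternative chosen after seeing the data, gave 1 lower on day 50 than on day 40. The libraries with the same letter did not deviate together (r of their deviations between -0.16 and 0.19), and 0 of 12 libraries correlated best with their own letter at every other age. With the letter as a replicate block, VIT_14s0068g00930 lost its call for 80 against 40 days (1.17, limma adjusted p = 0.051), which left 3 genes higher in place of 4, and no other call of a pathway gene changed.

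Differences that changed sign were all far from a call. From 40 to 50 days, VIT_04s0023g03370 ranged from -0.20 to 0.50 when single libraries were left out, and VIT_18s0001g14310 from -0.37 to 0.034 (without library c of day 40, and also without both libraries named above). From 60 to 80 days, single libraries left out gave -0.35 to 0.56 for VIT_02s0025g04720, -0.45 to 0.30 for VIT_14s0068g00930, -0.24 to 0.16 for VIT_18s0001g14310 and -0.10 to 0.22 for VIT_13s0067g02870. Without both libraries those of VIT_02s0025g04720, VIT_18s0001g14310 and VIT_13s0067g02870 were -0.35, -0.24 and -0.10. Scaling to a sum of 1000000 gave -0.12 for VIT_18s0001g14310 and -0.042 for VIT_13s0067g02870. For 80 against 40 days, VIT_13s0067g02870 was at 0.064 with median-of-ratios scaling and ranged from -0.26 to 0.15 over single libraries left out. For these sign changes the cause was not tested.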
